A study of Mus musculus with 33 samples.

Results

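The MHC class II and peptide-loading genes of the panel were followed by name across every group of the study, 7 of the 773 mouse genes counted in each lung. They are H2-Ab1 and H2-Eb1, which encode the beta chains of the class II molecules I-A and I-E, H2-DMa, H2-DMb1 and H2-DMb2, which encode the chains of the peptide editor H2-DM, H2-Ob, the beta chain of its inhibitor H2-DO, and Ctss, the protease cathepsin S. Right-lung RNA of 33 samples was counted on an nCounter panel, a method in which colour-coded probes bind single RNA molecules and are counted without amplification. All came from FVB/N mice of the genotype CCSP-rtTAtg/(teto)7Sftpb/Sftpb-/-. Their own gene for surfactant protein B, needed to keep alveoli from collapsing, is disrupted, and a doxycycline-dependent transgene, driven through the promoter of the airway secretory protein CCSP, supplies the protein. The Sftpb transcript was not analysed here, and ages are not given in the sources used here.

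At day 97 there were 6 groups of 4 lungs, 2 female (replicates 1 and 2) and 2 male (replicates 3 and 4) in each. The on-doxycycline group had no treatment and kept the transgene on, and the off-doxycycline group had no treatment and lost doxycycline at day 94. The remaining groups received AAV-hSPB or AAV-hSPBTLR9i into the trachea at day 0 and came off doxycycline at day 7. The single-dose groups had nothing more, and the repeat groups received the same vector again at day 90, so that they were harvested 7 days after it. A second experiment had 3 groups of 3 lungs, 2 female and 1 male in each, harvested at 3 h following AAV-hSPB, AAV-hSPBTLR9i or PBS alone. Whether the samples of a group are separate animals is not stated, so p-values here reflect the spread between lung samples only.

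MHC class II molecules present peptides from engulfed proteins to CD4 T cells, mainly on dendritic cells, B cells and macrophages. A class II molecule leaves the endoplasmic reticulum with the invariant chain in its groove, cathepsin S trims that chain in endosomes, and H2-DM then swaps the remaining fragment for peptides, a step that H2-DO restrains, mostly in B cells. The genes of the class II chains, the invariant chain and H2-DM are switched on together by CIITA. CIITA is recruited to a promoter module that includes an X box and a Y box and is itself induced by interferon-gamma. FVB/N mice carry an H2 haplotype that puts no I-E at the cell surface, so H2-Eb1 levels here describe RNA alone. The genes for the I-A alpha chain, the invariant chain, CIITA and the alpha chain of H2-DO were not analysed here.

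The 6 H2 genes lie within 197 kb of chromosome 17, from H2-DMa at chr17:34119693-34139101 to H2-Eb1 at chr17:34305867-34316674, and Ctss lies at chr3:95526786-95556405 (RefSeq, GRCm38.p6). The promoter stretches below, 5' to 3' on the plus strand and credited to RefSeq, GRCm38.p6, are shown because 4 of the class II genes hold the X box and Y box pair there and Ctss does not. Capitals mark the X box core, searched as AACNNATG, and the Y box, searched as ATTGG, in the H2 genes, and an interferon-stimulated response element core, searched as GAAA, 2 bases of any kind and GAAA, in Ctss.
H2-Eb1 (chr17:34305764-34305818): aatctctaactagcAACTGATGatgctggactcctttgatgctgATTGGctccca
H2-DMb1 (chr17:34153085-34153140): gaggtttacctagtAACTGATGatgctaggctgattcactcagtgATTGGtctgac
H2-DMb2 (chr17:34145114-34145169): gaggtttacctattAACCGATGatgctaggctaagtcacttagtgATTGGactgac
H2-Ob (chr17:34238806-34238858): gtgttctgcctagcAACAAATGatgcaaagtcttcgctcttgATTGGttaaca
Ctss (chr3:95526745-95526794): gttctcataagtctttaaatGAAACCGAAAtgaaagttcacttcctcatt

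In the 4 H2 genes the X box core stood 85 to 121 bases before the annotated start used, with 20 to 23 bases between it and the Y box. Windows of 300 bases (250 before to 50 after a start) were searched on both strands. An X box core followed by a Y box 12 to 32 bases away was found in 53 of 32851 windows of all genes (0.161%), an X box core, paired or not, in 8.86%, a Y box in 37.4% and the interferon element in 3.44%. The motifs do not overlap each other in the stretches shown, and their spelling was chosen with these promoters in view. Of the 7 genes 6 had a window, and H2-Ab1, which had none, was not searched. An unpaired X box core also lay in the window of Ctss, and neither of the 2 windows of H2-DMa held the paired boxes or the interferon element. The stretches are those of the reference genome, and whether the FVB/N mice carry the same bases was not tested. H2-DMb1 and H2-DMb2 are neighbours of closely similar sequence, and 50 of the 56 bases shown are identical. Whether their panel probes also take up each other's RNA was not tested, so their separate values are uncertain.

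Levels are the authors' log2 normalized counts, and a difference of 1 log2 unit is a 2-fold difference. Whole counts recovered from these values totalled 597788 to 1131011 per lung at day 97 and 1156612 to 1710291 at 3 h. At day 97 the totals differed by group. Every AAV-hSPBTLR9i lung had at least 851635, and the on-doxycycline, off-doxycycline and single AAV-hSPB lungs had at most 832041. Repeat AAV-hSPB lungs ran from 597788 to 856619. H2-Ab1 was counted 3322 to 16905 times per lung, Ctss 1985 to 5724, H2-DMb1 830 to 3783, H2-DMa 536 to 2277, H2-DMb2 159 to 861 and H2-Ob 88 to 497 times. H2-Eb1 was the dimmest, at 32 to 188 counts, and its lowest day 97 lung stood 1.56 times above background, the mean plus 2 SD of 8 control probes. All 7 genes were above background in every day 97 lung. Background was 15.8 to 22.2 counts on doxycycline, 12.3 to 26.0 after repeat AAV-hSPB and 22.8 to 32.7 after repeat AAV-hSPBTLR9i. The lungs carried lung epithelial RNA by the 2 of 11 epithelial markers measured, Cdh1 and Lamp3, whose summed level was 6695 to 13865 at day 97. On-doxycycline replicate 1 stood apart by liver transcripts, a sum of 48456 over 4 markers against 389 to 1031 in the remaining day 97 lungs. Repeat AAV-hSPB replicate 2 had correlations of 0.944 to 0.953 over all genes with the lungs of its group, and an endothelial marker sum of 4214 against 8434 to 11586 in the 3 lungs beside it. Off-doxycycline replicates 1 and 2, the female lungs of that group, stood apart in the summed level of 3 of 6 neutrophil markers, at 39518 and 34639 against 3622 and 2639 in the male lungs beside them and 1841 to 7961 in the remaining day 97 lungs. Lcn2, which epithelial cells also make, carried the gap, at 15.25 and 15.02 in log2 normalized counts against at most 12.91 elsewhere, while Csf3r (8.36 and 9.67, at most 9.35 elsewhere) and Cxcr2 (7.88 and 9.45, at most 8.98) were highest in replicate 2. Of 5 monocyte markers, Itgam (9.15 to 9.77, at most 9.01 elsewhere) and Cd14 (9.46 to 10.21, at most 9.00) were highest in both lungs. Ccr2, Fcgr1 and Cx3cr1 were not. Against the male lungs, sums were 2576 and 3543 against 1345 and 1381 for monocyte markers. They were 3241 and 3505 against 2107 and 1841 for macrophages, and 1018 and 1452 against 637 and 542 for dendritic cells. Endothelial sums were lower, 6712 and 8110 against 10407 and 10919. Correlations within the off-doxycycline group went down to 0.932, between replicates 2 and 4. In the deposited day 97 table, samples 13 to 24 (single AAV-hSPBTLR9i and both repeat groups) are listed before samples 1 to 12. Whether those sets were run separately is not given in the sources used here, and for comparisons that cross them group and set cannot be told apart. Within one set lie the comparisons of the untreated and single AAV-hSPB groups with each other and those of the remaining 3 groups with each other.

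The class II chain genes were lowest on doxycycline and highest after repeat dosing. H2-Ab1 stood at 11.95, 11.55, 12.26 and 11.83 on doxycycline and at 12.84, 12.25, 12.09 and 12.11 off doxycycline. After a single dose it stood at 12.23, 12.48, 12.70 and 12.67 with AAV-hSPB and at 12.60, 13.08, 12.65 and 12.72 with AAV-hSPBTLR9i. After repeat dosing it stood at 13.21, 12.65, 13.06 and 13.57 with AAV-hSPB and at 12.94, 13.17, 13.06 and 13.04 with AAV-hSPBTLR9i. All lungs of both repeat groups lay above all on-doxycycline lungs, and the off-doxycycline range reached into the repeat AAV-hSPB range through its replicate 1 alone. The AAV-hSPBTLR9i repeat lungs lay closest together (SD 0.09, n = 4), against an SD of 0.38 for the AAV-hSPB repeat lungs.

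Against continued doxycycline H2-Ab1 rose by 1.23 ± 0.19 on the log2 scale (± SE throughout the tests, 4 lungs per group, limma adjusted p = 0.000135) after repeat AAV-hSPB, 2.34-fold with a 95% interval of 1.77 to 3.09. It rose by 1.16 ± 0.19 (limma adjusted p = 0.000593) after repeat AAV-hSPBTLR9i, 2.23-fold (1.69 to 2.94). Both values share the same 4 on-doxycycline lungs. Against the off-doxycycline lungs, which differ from the vector groups in the length of doxycycline withdrawal, it rose by 0.80 ± 0.19 (limma adjusted p = 0.00394) and 0.73 ± 0.19 (limma adjusted p = 0.0149). The former call was lost with the compared groups fitted alone, and its limma adjusted p reached 0.0823 over the alternatives. The latter call was lost without AAV-hSPBTLR9i repeat replicate 2 (0.69, limma adjusted p = 0.0533).

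H2-Eb1 stood at 5.39, 4.98, 5.71 and 5.06 on doxycycline and at 6.08, 6.00, 5.11 and 5.76 off it. The single-dose lungs stood at 5.53, 6.43, 6.17 and 6.39 with AAV-hSPB and at 6.00, 6.41, 6.10 and 6.17 with AAV-hSPBTLR9i. The repeat lungs stood at 7.04, 7.58, 6.45 and 7.41 with AAV-hSPB and at 6.77, 6.72, 6.01 and 6.37 with AAV-hSPBTLR9i. The AAV-hSPB repeat lungs lay above every lung of the 4 groups without repeat dosing, and the lungs of the 2 repeat groups overlapped through the 6.45 of AAV-hSPB repeat replicate 3.

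H2-Eb1 had the widest difference of the 7 genes. It rose by 1.84 ± 0.26 log2 units after repeat AAV-hSPB against continued doxycycline (limma adjusted p = 5.34e-05), 3.57-fold (2.44 to 5.22), which is rank 16 from the top among the differences of all 773 genes. After repeat AAV-hSPBTLR9i it rose by 1.18 ± 0.26 (limma adjusted p = 0.00481), 2.27-fold (1.55 to 3.32). Against the off-doxycycline lungs it rose by 1.38 ± 0.26 after repeat AAV-hSPB (limma adjusted p = 0.0008). Its difference after repeat AAV-hSPBTLR9i was 0.73 ± 0.26 (limma adjusted p = 0.0622). This passed without replicate 3 of that group, its lowest lung (0.88, limma adjusted p = 0.0400). Over all alternatives it ran from 0.52 to 1.03, with limma adjusted p up to 0.181. H2-Eb1 was also higher after repeat than after single AAV-hSPB, by 0.99 ± 0.26 (limma adjusted p = 0.0252). That call was lost without repeat AAV-hSPB replicate 2, its highest lung (0.84, limma adjusted p = 0.0722), without replicate 4 of that group (0.90, 0.0815 as limma adjusted p), and without single AAV-hSPB replicate 1 or 3 (0.79 and 1.01, limma adjusted p of 0.0945 and 0.0522). Against single AAV-hSPBTLR9i, within samples 13 to 24, H2-Eb1 was higher after repeat AAV-hSPB by 0.95 ± 0.26 (limma adjusted p = 0.0409, 1 of 7 members against 5.82% of all genes), a call lost on leaving out any one of 6 of the 8 lungs, with values of 0.80 to 0.98.

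**Figure D1:**
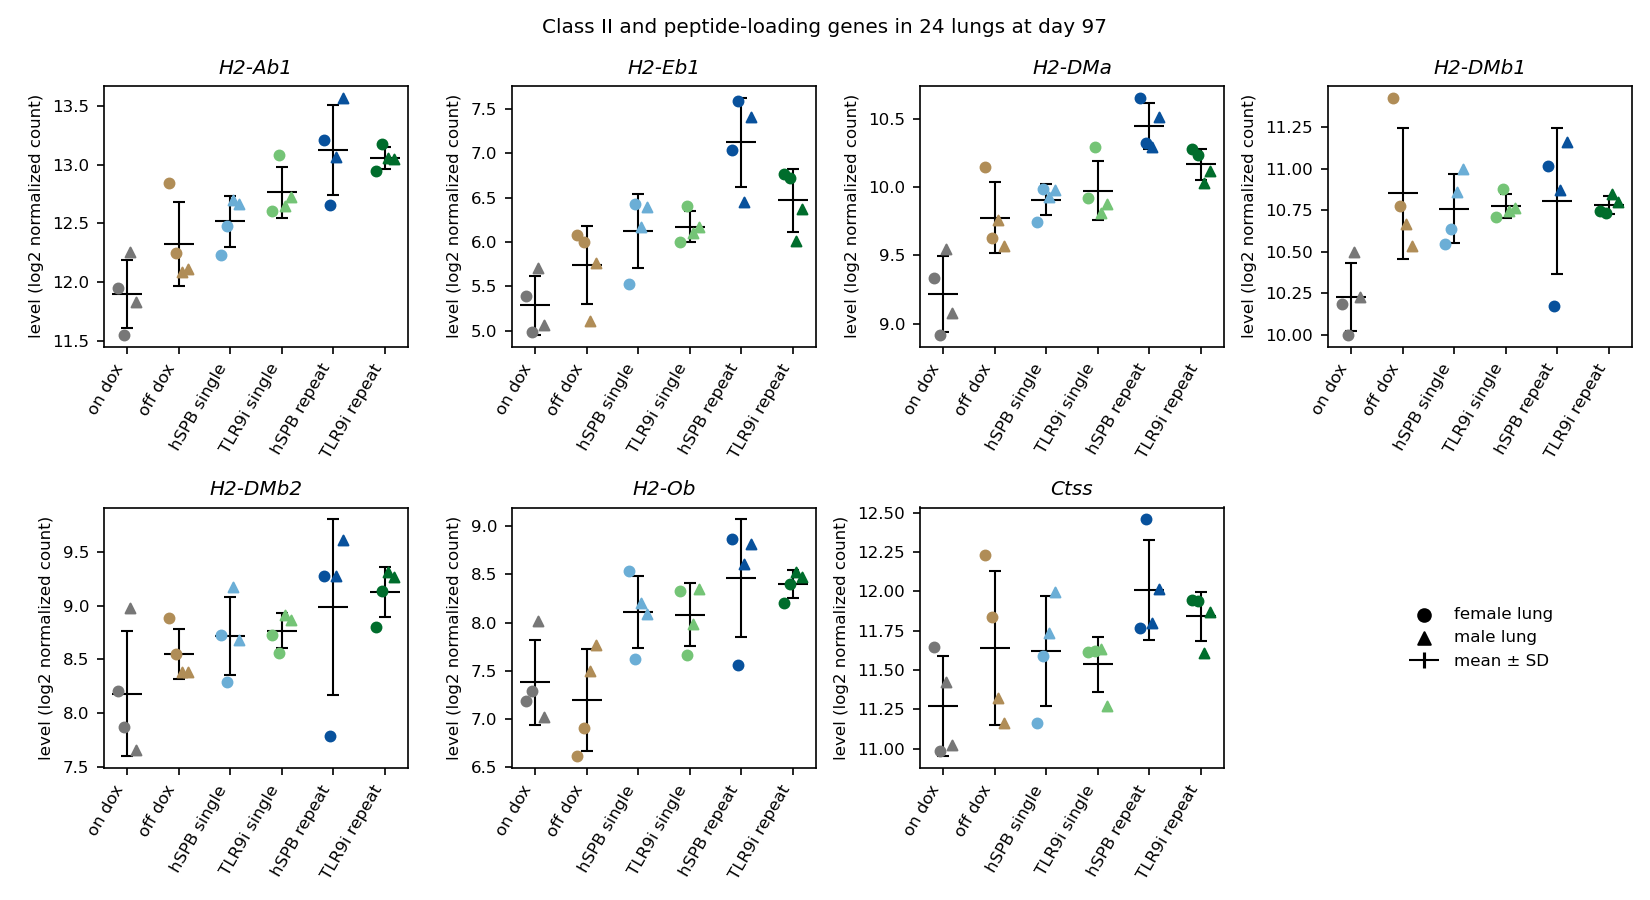
Levels of the 7 genes in the 24 lungs at day 97, in log2 normalized counts, by group (dox, doxycycline), with circles for female and triangles for male lungs and bars for the mean and SD of 4 lungs. H2-Ab1, H2-Eb1 and H2-DMa are lowest on doxycycline and highest after repeat dosing, and AAV-hSPB repeat replicate 2 lies low for H2-DMb1, H2-DMb2 and H2-Ob (10.17, 7.79 and 7.56) and high for H2-Eb1 and Ctss (7.58 and 12.46).

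Of the H2-DM genes, H2-DMa encodes the alpha chain. It stood at 9.33, 8.92, 9.55 and 9.08 on doxycycline and at 10.15, 9.63, 9.76 and 9.57 off it. With a single dose its levels were 9.74, 9.98, 9.93 and 9.98 with AAV-hSPB and at 9.92, 10.29, 9.81 and 9.88 with AAV-hSPBTLR9i. With repeat dosing its levels were 10.65, 10.32, 10.30 and 10.51 with AAV-hSPB and at 10.28, 10.23, 10.03 and 10.12 with AAV-hSPBTLR9i. The on-doxycycline lungs lay below all 20 remaining lungs of that day, and the AAV-hSPB repeat lungs lay above all of them.

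Against continued doxycycline H2-DMa rose by 1.23 ± 0.15 log2 units after repeat AAV-hSPB (limma adjusted p = 5.5e-06), 2.34-fold (1.90 to 2.89), and by 0.95 ± 0.15 after repeat AAV-hSPBTLR9i (limma adjusted p = 0.000368), 1.93-fold (1.56 to 2.38). It was the single one of the 7 genes that passed after a single dose, with 0.75 ± 0.15 for AAV-hSPBTLR9i (limma adjusted p = 0.0342). That call was lost on leaving out any one of 6 of the 8 lungs compared, on-doxycycline replicate 1 with its liver transcripts among them (0.79, limma adjusted p = 0.0664). For single AAV-hSPB the difference was 0.69 ± 0.15 (limma adjusted p = 0.0871), and for the off-doxycycline lungs 0.56 ± 0.15 (limma adjusted p = 0.205). H2-DMa also rose after repeat AAV-hSPB against the off-doxycycline lungs (0.67 ± 0.15, limma adjusted p = 0.00209) and against single AAV-hSPB (0.54 ± 0.15, limma adjusted p = 0.0275). The former was lost with the compared groups fitted alone, and its limma adjusted p reached 0.0515 over the alternatives. The latter was lost without single AAV-hSPB replicate 1, 3 or 4 and without repeat AAV-hSPB replicate 1 or 4, with values of 0.47 to 0.56 and limma adjusted p of 0.0562 to 0.0856.

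H2-DMb1, a beta chain of H2-DM, had its highest mean off doxycycline. Replicates 1 and 2 of that group, the lungs with the high Lcn2, were the highest there. Without them the difference from continued doxycycline was 0.37, against 0.62 with all lungs. H2-DMb1 stood at 10.19, 10.00, 10.50 and 10.23 on doxycycline and at 11.43, 10.78, 10.67 and 10.53 off it. In the single-dose lungs H2-DMb1 was at 10.55, 10.63, 10.86 and 11.00 with AAV-hSPB and at 10.71, 10.88, 10.74 and 10.76 with AAV-hSPBTLR9i. In the repeat lungs H2-DMb1 was at 11.01, 10.17, 10.87 and 11.16 with AAV-hSPB and at 10.75, 10.73, 10.85 and 10.80 with AAV-hSPBTLR9i. The 5 groups other than the on-doxycycline group had means between 10.76 and 10.85. After repeat AAV-hSPB it rose by 0.58 ± 0.19 against continued doxycycline (limma adjusted p = 0.0303). On-doxycycline replicate 1, 2 or 4 left out ended this call, as did leaving out AAV-hSPB repeat replicate 1, 3 or 4, with values of 0.46 to 0.58 and limma adjusted p of 0.0563 to 0.111. So did all 12 reference genes as the scale (0.45, limma adjusted p = 0.105). After repeat AAV-hSPBTLR9i the difference was 0.55 ± 0.19 (limma adjusted p = 0.0643).

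H2-DMb2, the other beta chain, had the widest spread within a group of the 7 genes (SD 0.81, n = 4, after repeat AAV-hSPB). It stood at 8.20, 7.87, 8.98 and 7.66 on doxycycline and at 8.88, 8.55, 8.38 and 8.39 off it. Single-dose levels of H2-DMb2 were 8.73, 8.29, 9.18 and 8.68 with AAV-hSPB and at 8.72, 8.56, 8.91 and 8.87 with AAV-hSPBTLR9i. Repeat-dose levels of H2-DMb2 were 9.28, 7.79, 9.27 and 9.61 with AAV-hSPB and at 8.80, 9.13, 9.31 and 9.27 with AAV-hSPBTLR9i. Its difference from continued doxycycline was 0.81 ± 0.31 after repeat AAV-hSPB (limma adjusted p = 0.0621) and 0.95 ± 0.31 after repeat AAV-hSPBTLR9i (limma adjusted p = 0.0517), and neither passed. Without AAV-hSPB repeat replicate 2, at 7.79, the former was 1.21 with a limma adjusted p = 0.00156, and without on-doxycycline replicate 3, at 8.98, the latter was 1.22 with a limma adjusted p = 0.0102. These had the lowest adjusted p. Over all alternatives the differences ran from 0.58 to 1.22 and from 0.75 to 1.22, with limma adjusted p up to 0.239 and 0.181.

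H2-Ob, the inhibitor chain, was the single one of the 7 genes whose mean was lower off doxycycline than on it. It stood at 7.19, 7.29, 8.02 and 7.02 on doxycycline and at 6.61, 6.91, 7.50 and 7.77 off it. H2-Ob stood in the single-dose lungs at 8.53, 7.63, 8.20 and 8.09 with AAV-hSPB and at 8.33, 7.66, 7.99 and 8.35 with AAV-hSPBTLR9i. H2-Ob stood in the repeat lungs at 8.86, 7.56, 8.61 and 8.82 with AAV-hSPB and at 8.20, 8.40, 8.53 and 8.48 with AAV-hSPBTLR9i. Every AAV-hSPBTLR9i repeat lung lay above every lung of both untreated groups, whereas AAV-hSPB repeat replicate 2 lay within their ranges. The difference between the untreated groups was -0.18 ± 0.29 (limma adjusted p = 0.786), and without off-doxycycline replicates 1 and 2, its lowest lungs, it was 0.26 ± 0.33 (limma adjusted p = 0.997).

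Against continued doxycycline H2-Ob rose by 1.08 ± 0.29 log2 units after repeat AAV-hSPB (limma adjusted p = 0.00996), 2.12-fold (1.39 to 3.24), and by 1.02 ± 0.29 after repeat AAV-hSPBTLR9i (limma adjusted p = 0.0262), 2.03-fold (1.33 to 3.10). The former was also lost with the compared groups fitted alone, and its limma adjusted p reached 0.0706 over the alternatives. The latter was lost without on-doxycycline replicate 1 (0.96, limma adjusted p = 0.0644) and on leaving out any one of 5 other lungs. Against the off-doxycycline lungs it rose by 1.26 ± 0.29 (limma adjusted p = 0.0031) and 1.20 ± 0.29 (limma adjusted p = 0.0093). Without off-doxycycline replicates 1 and 2, which were low in H2-Ob and high in Lcn2, both calls were lost (0.83 and 0.77, limma adjusted p of 0.0843 and 0.177).

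Ctss, the protease gene on another chromosome, had overlapping ranges in most groups. It stood at 11.65, 10.99, 11.43 and 11.03 on doxycycline and at 12.23, 11.84, 11.32 and 11.16 off it. The 2 highest of these off-doxycycline lungs were the female ones with the high Lcn2, and without them the difference from continued doxycycline was -0.03 ± 0.23 (limma adjusted p = 0.997). Within groups the neutrophil list had a correlation of 0.51 with Ctss and -0.44 with H2-Ob. Values for Ctss were larger in size with the monocyte (0.71), macrophage (0.67) and endothelial (-0.69) lists. Larger values for H2-Ob included those with the B cell (0.88) and endothelial (0.75) lists. The part of any of these cells in the levels was not tested. Ctss levels after a single dose were 11.16, 11.59, 11.74 and 12.00 with AAV-hSPB and at 11.61, 11.62, 11.63 and 11.28 with AAV-hSPBTLR9i. Ctss levels after repeat dosing were 11.77, 12.46, 11.80 and 12.01 with AAV-hSPB and at 11.95, 11.94, 11.61 and 11.87 with AAV-hSPBTLR9i. All AAV-hSPB repeat lungs lay above the on-doxycycline lungs. Ctss rose there by 0.74 ± 0.22 (limma adjusted p = 0.0197), 1.67-fold (1.21 to 2.30), a call lost without AAV-hSPB repeat replicate 2 (0.59, limma adjusted p = 0.0633), without on-doxycycline replicate 2 (0.64, limma adjusted p = 0.0661) and without on-doxycycline replicate 4 (0.66, limma adjusted p = 0.066). After repeat AAV-hSPBTLR9i the difference was 0.57 ± 0.22 (limma adjusted p = 0.0988).

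Taken as a list, 6 of the 7 genes rose after repeat AAV-hSPB against continued doxycycline, where 23.3% of all 773 genes were called higher, and 4 rose after repeat AAV-hSPBTLR9i, where 11% of all genes were. The median difference of the 7 was 1.08 and 0.95 log2 units, against 0.15 and 0.11 over all genes. Every repeat lung lay above every on-doxycycline lung for 4 and 5 of the 7 genes, against 18.2% and 18.1% of all genes. With the compared groups fitted alone, 3 of the 7 passed after repeat AAV-hSPB, and without on-doxycycline replicate 1 and AAV-hSPB repeat replicate 2 together all 7 passed in both comparisons. Scaling moved the panel as a whole: for repeat AAV-hSPB the median of all genes was 0.02 with all 12 reference genes and -0.07 with each lung's median gene as the scale, and the called genes were 180 higher and 23 lower, 114 and 73, or 98 and 119. For repeat AAV-hSPBTLR9i they were 85 higher and 4 lower, 61 and 18, or 53 and 37. All 7 differences of both comparisons stayed above 0 under these 3 scales, the smallest at 0.35, and less the median of all genes they ran from 0.42 to 1.68 and from 0.45 to 1.08, values that a scale per lung cannot move.

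After a single dose the members' differences from continued doxycycline were all above 0 but mostly did not pass. For AAV-hSPB 0 of 7 passed, as did 0% of all genes, with differences of 0.35 to 0.84 and 5 members at an unadjusted limma p under 0.05 (10.6% of all genes), and voom on the recovered counts called 1 gene, H2-DMa. For AAV-hSPBTLR9i 1 of 7 passed, against 0.259% of all genes, with differences of 0.26 to 0.88 (H2-Ab1 0.86 ± 0.19, limma adjusted p = 0.0564). The lungs did not overlap with the on-doxycycline lungs for 2 members after AAV-hSPB (4.92% of all genes) and 4 after AAV-hSPBTLR9i (8.54%). Doxycycline withdrawal for 3 days called 0 of 7 members higher and 0% of all genes (limma, 3 members and 12.4% of all genes at an unadjusted p under 0.05), with differences of -0.18 to 0.62. The lungs of H2-DMa and H2-DMb1 did not overlap between the off- and on-doxycycline groups, 2 of 7 members against 2.46% of all genes.

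Against the off-doxycycline lungs, 4 of 7 genes rose after repeat AAV-hSPB (22.5% of all genes were called higher) and 2 after repeat AAV-hSPBTLR9i (14.5%). Fitted without the 4 remaining groups, the former count was 1. Without off-doxycycline replicates 1 and 2 the counts were 4, with H2-Ob lost and Ctss gained (0.77, limma adjusted p = 0.0253), and 1, H2-Ab1. Of all genes, 174 were higher and 35 lower after repeat AAV-hSPB, 121 and 70 with all 12 reference genes and 102 and 82 with the median gene as the scale. For repeat AAV-hSPBTLR9i they were 112 and 25, 66 and 31, and 53 and 45. H2-DMb1 differed by -0.05 ± 0.19 and -0.07 ± 0.19 in the same order, and its intervals, -0.44 to 0.35 and -0.47 to 0.32, leave out a 2-fold difference. Without off-doxycycline replicates 1 and 2 these H2-DMb1 differences were 0.20 and 0.18. Neither single-dose group had a member called against the off-doxycycline lungs (0% of all genes in both, limma, with 1 and 2 members and 16.4% and 18.4% of all genes at an unadjusted p under 0.05), and the largest difference was that of H2-Ob, 0.92 ± 0.29 for AAV-hSPB and 0.89 ± 0.29 for AAV-hSPBTLR9i.

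**Figure D2:**
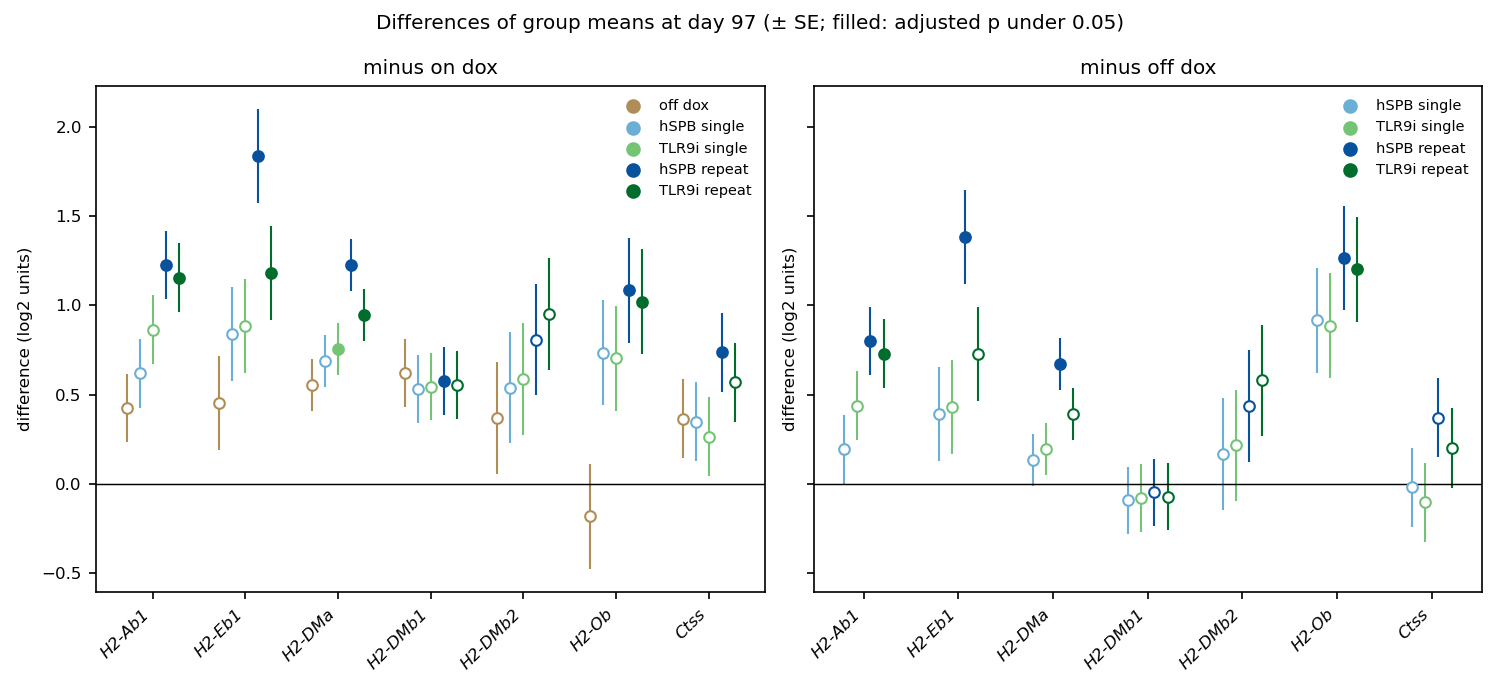
Differences of group means at day 97 in log2 units for the 7 genes, against the on-doxycycline lungs (left) and the off-doxycycline lungs (right), with SE from limma over 4 lungs per group, and filled points where the adjusted p is under 0.05. After repeat AAV-hSPB 6 of 7 points on the left and 4 of 7 on the right are filled, and H2-DMb1 lies near 0.6 in all groups on the left and near 0 on the right.

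Repeat and single dosing were compared within each vector. The last dose was at day 90 in the repeat lungs and at day 0 in the single-dose lungs. A further dose and the time since the last dose therefore cannot be told apart. The AAV-hSPB contrast also crosses samples 1 to 12 and 13 to 24, and so does the test of the difference between both contrasts. The AAV-hSPBTLR9i contrast lies within samples 13 to 24. For AAV-hSPB 2 of 7 genes were higher, H2-Eb1 and H2-DMa, against 6.73% of all genes, and the 7 differences ran from 0.04 to 0.99. The 52 genes called higher and 4 lower in all became 27 and 21 with all 12 reference genes as the scale, where 0 members passed (H2-Eb1 0.88, limma adjusted p = 0.0506). For AAV-hSPBTLR9i 0 of 7 passed, against 0.388% of all genes, with 0 members and 7.76% of all genes at an unadjusted limma p under 0.05, and differences of 0.01 to 0.36. The difference between those 2 contrasts was itself tested, and 0 members and 0% of all genes passed (limma, with 0 members and 3.1% of all genes at an unadjusted p under 0.05). It was -0.69 ± 0.37 for H2-Eb1, -0.35 ± 0.21 for H2-DMa and -0.31 ± 0.27 for H2-Ab1, each with a limma adjusted p = 0.995, and the interval for H2-Eb1 ran from -1.47 to 0.08.

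The vectors were compared directly at matched dosing and time. After repeat dosing 0 of 7 genes and 0% of all genes passed in limma, with 1 member and 6.6% of all genes at an unadjusted p under 0.05. AAV-hSPBTLR9i less AAV-hSPB was -0.65 ± 0.26 for H2-Eb1, with a 95% interval of -1.20 to -0.10 (limma adjusted p = 0.723). It was -0.28 ± 0.15 for H2-DMa (-0.58 to 0.02, limma adjusted p = 0.757), the 1 member whose AAV-hSPBTLR9i lungs all lay below the AAV-hSPB lungs, as did 1.81% of all genes. The remaining members differed by -0.17 to 0.14. At single dosing 0 of 7 genes and 0% of all genes passed in limma (0 members and 1.03% of all genes at an unadjusted p under 0.05), with differences of -0.08 to 0.24 and the widest interval for H2-DMb2, -0.60 to 0.70.

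In the order of group means at day 97, H2-Ab1, H2-Eb1 and H2-DMa ran in the same sequence: on doxycycline, off doxycycline, single AAV-hSPB, single AAV-hSPBTLR9i, repeat AAV-hSPBTLR9i and repeat AAV-hSPB. H2-DMb2 followed it apart from the last pair, in H2-Ob the first pair changed places and so did the single-dose pair, and in H2-DMb1 and Ctss the off-doxycycline group stood at the top and just below the repeat groups. For both H2-DMb1 and Ctss, off-doxycycline replicates 1 and 2 were the highest of their group. Of 35 pairs of neighbours in these orders 0 passed in limma, and the ranges of 3 pairs did not overlap. These were on and off doxycycline for H2-DMa (2.46% of all genes higher without overlap), on doxycycline and single AAV-hSPB for H2-DMb1 (4.92%), and both repeat groups for H2-DMa (1.81% lower without overlap). The mean of the 7 genes, each centred on its day 97 mean, ran from -0.87 to -0.18 in the on-doxycycline lungs, from -0.41 to 0.08 off doxycycline, from -0.18 to 0.16 and from 0.02 to 0.12 after single AAV-hSPB and AAV-hSPBTLR9i, and from 0.12 to 0.77 and from 0.24 to 0.38 after their repeats.

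Within groups the 7 genes did not vary as 1 block. Over the 24 lungs pooled, the 21 pairs had correlations of 0.08 to 0.93 (median 0.65), and after centring each gene within each group they ran from -0.59 to 0.91 (median 0.42), 5 of them below 0. H2-Ab1 went with H2-DMb1 (0.91) and H2-DMa (0.79) within groups, H2-DMb1 with H2-DMb2 (0.76) and H2-Eb1 with Ctss (0.71), whereas H2-Ob and Ctss ran opposite to each other (-0.59). Without AAV-hSPB repeat replicate 2 the median was 0.61, the lowest -0.52 for H2-Ob and Ctss, and 5 pairs remained below 0. These are descriptions over lungs whose genes share a scaling factor and RNA sample.

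**Figure D3:**
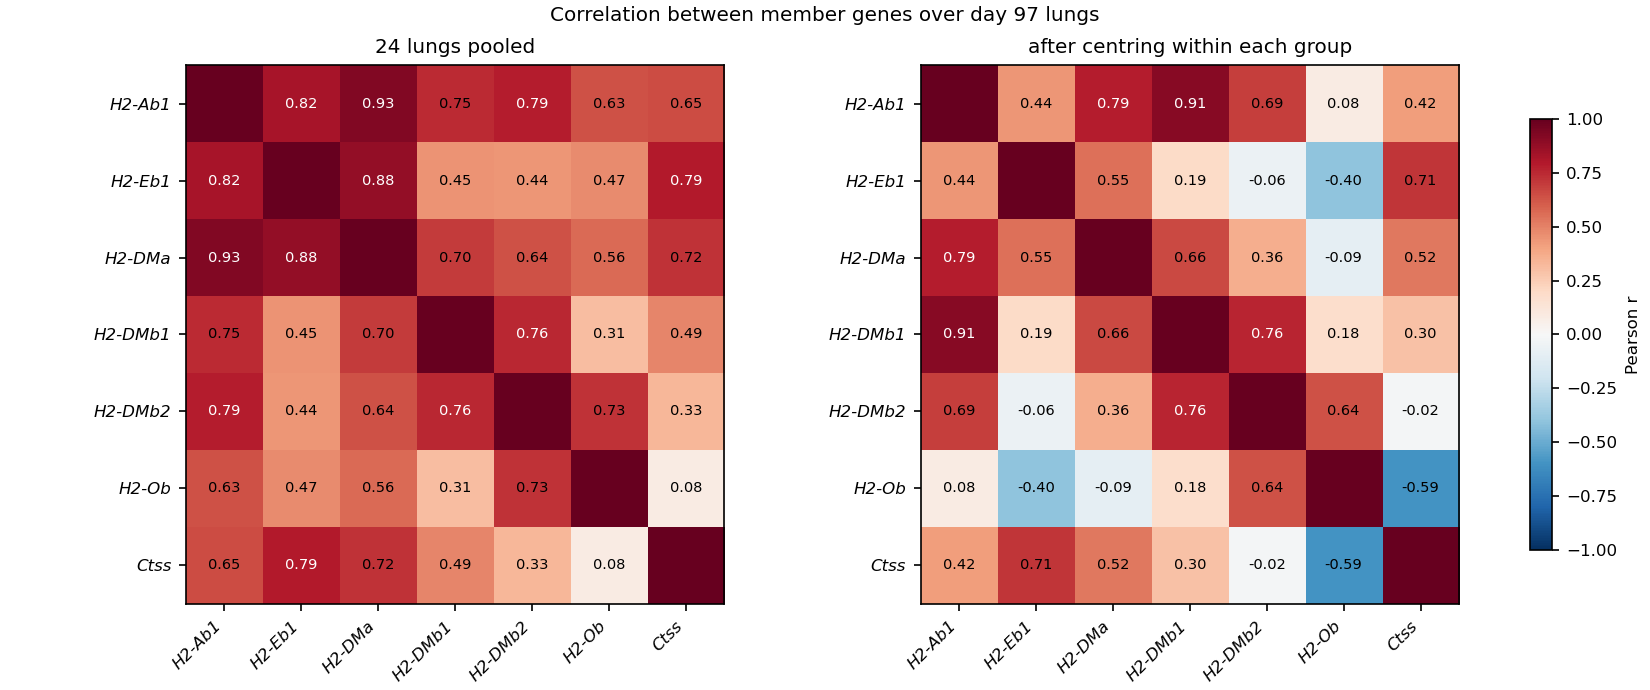
Pearson correlations between the 7 genes over the 24 lungs at day 97, pooled on the left and after centring each gene on its group mean on the right. H2-Ob has correlations of -0.59 with Ctss and -0.40 with H2-Eb1 within groups, and H2-Ab1 and H2-DMb1 reach 0.91.

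Markers of B cells, dendritic cells and macrophages, which carry class II, are given beside these genes. The summed level of the 7 B cell markers measured, of 11 listed, ran from 619 to 1846 on doxycycline and from 766 to 1509 off it. It ran from 1344 to 2461 after single AAV-hSPB, from 1301 to 2308 after single AAV-hSPBTLR9i, from 1528 to 3422 after repeat AAV-hSPB and from 2382 to 2806 after repeat AAV-hSPBTLR9i. Of these 7 markers 5 rose after repeat AAV-hSPB against continued doxycycline and 6 after repeat AAV-hSPBTLR9i (limma, against 23.3% and 11% of all genes), Cd79a by 1.46 and 1.27. All 7 were above background in every day 97 lung. Within groups H2-Ob had a correlation of 0.88 with the mean of these markers and H2-DMb2 0.72, against 0.15 for H2-Ab1 and -0.32 for Ctss. Without AAV-hSPB repeat replicate 2 the values for H2-Ob and H2-DMb2 were 0.83 and 0.61. The T cell and endothelial lists had correlations of 0.74 and 0.75 with H2-Ob over the 24 lungs, and of 0.61 and 0.59 without that lung. AAV-hSPB repeat replicate 2, low in H2-Ob, had the lowest B cell marker sum of its group. In whole-lung RNA more cells of a type and more RNA per cell cannot be told apart, and the part of B cells in these results was not tested.

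Dendritic cell markers were less uniform. The summed level of 5 of 12 listed (Itgax, Xcr1, Ccr7, Ccl22 and Ccl17) was 400 to 706 on doxycycline, 542 to 1452 off it, 624 to 944 after repeat AAV-hSPB and 639 to 876 after repeat AAV-hSPBTLR9i, and 1 and 0 of them rose after repeat dosing against continued doxycycline (Itgax by 0.60 ± 0.21 with AAV-hSPB, limma adjusted p = 0.0385). Of 5 of 12 macrophage markers (Cd68, Marco, Mrc1, Csf1r and Cd163), with sums of 1683 to 2697 on doxycycline, 2170 to 3099 after repeat AAV-hSPB and 2132 to 3292 after repeat AAV-hSPBTLR9i, Csf1r alone rose, by 0.71 and 0.46. Xcr1 was not above background in 1 off-doxycycline lung, Cd163 in 1 lung each of the off-doxycycline and repeat AAV-hSPB groups and Marco in 1 repeat AAV-hSPB lung. Within groups the dendritic list had correlations of 0.72 with H2-Ab1 and -0.15 with H2-Ob, and the macrophage list 0.67 with Ctss and -0.53 with H2-Ob. Their part in the result was not tested.

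**Figure D4:**
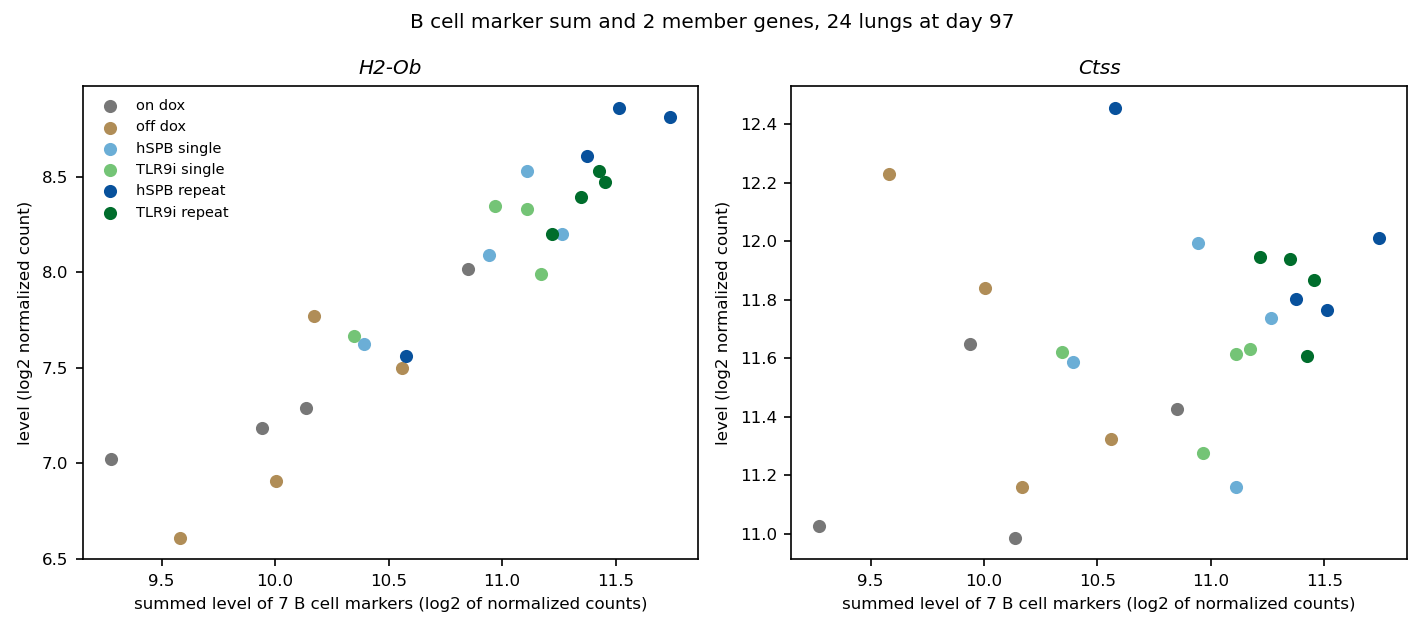
Level of H2-Ob (left) and Ctss (right) in log2 normalized counts against the log2 of the summed level of 7 B cell markers in the 24 lungs at day 97, 1 point per lung. Across the lungs H2-Ob is higher where the marker sum is higher (dox, doxycycline), and the Ctss points are scattered.

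Of the other class II pathway genes listed, 7 of 24 were measured: the costimulators Cd80, Cd86 and Cd40 of antigen-presenting cells, Cd4 and Lag3, T cell receptors for class II, the protease Ctsl, which trims the invariant chain in the thymus, and Creb1, which binds the class II promoter module. After repeat AAV-hSPB 4 rose against continued doxycycline and 1 fell, where 23.3% of all genes rose and 2.98% fell. Lag3 rose by 1.25 ± 0.27 (limma adjusted p = 0.002), Cd86 by 0.85 ± 0.22 (limma adjusted p = 0.00627), Cd4 by 0.76 ± 0.23 (limma adjusted p = 0.0198) and Cd80 by 0.99 ± 0.36 (limma adjusted p = 0.0489). Ctsl fell by 0.51 ± 0.11 (limma adjusted p = 0.00249), while Ctss rose. Cd40 differed by 0.40 ± 0.19 (limma adjusted p = 0.128) and Creb1 by -0.08 ± 0.13 (limma adjusted p = 0.684). After repeat AAV-hSPBTLR9i 4 rose and 1 fell (11% and 0.517% of all genes), and the values were 1.30 for Lag3, 1.21 for Cd80, 0.67 for Cd86, 0.82 for Cd4 and -0.37 for Ctsl, with limma adjusted p of 0.00324, 0.0337, 0.0498, 0.0221 and 0.0349.

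Of the 9 interferon-gamma pathway genes listed, 8 were measured. Those not named in this paragraph are not reported here, so its values do not describe the list as a whole. Socs1, a feedback inhibitor, rose by 0.75 ± 0.21 after repeat AAV-hSPB against continued doxycycline (limma adjusted p = 0.0105), and differed by 0.16 ± 0.21 after repeat AAV-hSPBTLR9i (limma adjusted p = 0.690). It was not above background in 1 lung each of the on-doxycycline, off-doxycycline and repeat AAV-hSPBTLR9i groups. The receptor chains Ifngr1 and Ifngr2 differed by -0.19 to 0.01. Ifng itself was above background in 3 of 4 lungs after repeat AAV-hSPB and in 2 of 4 after repeat AAV-hSPBTLR9i, with at most 38 counts, and in 0 of 16 lungs of the remaining day 97 groups. Irf1, a transcription factor that interferon-gamma induces, differed by 0.34 ± 0.18 in both (limma adjusted p = 0.159 and 0.242).

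The genes whose pattern was most like the mean of the 7 were sought among all others. Over the 24 lungs at day 97 the leading genes included Tap1, the peptide transporter of class I (0.91), Gbp2 (0.88), Psmb9, an immunoproteasome subunit (0.87), Zbp1, a nucleic acid sensor (0.87), Gbp3 (0.87), Tlr9, an endosomal DNA sensor (0.86), and the chemokine Cxcl9 (0.86), which was not above background in 2 on-doxycycline lungs. Tap1 had group means of 8.53 ± 0.27 (SD, n = 4) on doxycycline and 9.05 ± 0.30 off it, and of 10.16 ± 0.39 and 9.71 ± 0.15 after repeat AAV-hSPB and AAV-hSPBTLR9i. After centring within groups they included Tlr9 (0.86), Tap1 (0.71), Casp4, an inflammatory caspase (0.71), and Cd86 (0.70). Over the 9 lungs at 3 h the values were -0.27 for Tlr9, 0.94 for Tap1, 0.27 for Casp4 and -0.05 for Cd86. Tlr9 was counted 35 to 143 times per lung at day 97. These values are Pearson correlations over lungs that share a scaling factor, given as a description.

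Shortly after dosing the 7 genes were compared at 3 h, in a table that was normalized on its own, so its levels are not set against those at day 97. H2-Ab1 stood at 13.02, 13.08 and 12.95 after PBS, at 13.37, 13.78 and 13.14 after AAV-hSPB and at 13.47, 12.84 and 13.13 after AAV-hSPBTLR9i. H2-DMb1 stood at 10.98, 10.95 and 11.07 after PBS, at 11.33, 11.62 and 11.11 after AAV-hSPB and at 11.28, 10.91 and 11.02 after AAV-hSPBTLR9i. The AAV-hSPB lungs lay above the PBS lungs for both genes, 2 of 7 members against 5.05% of all genes, and the AAV-hSPBTLR9i lungs overlapped both groups. H2-Ob stood at 8.16, 7.78 and 8.36 after PBS, at 7.98, 7.50 and 7.51 after AAV-hSPB and at 7.94, 7.84 and 7.91 after AAV-hSPBTLR9i, with overlap throughout.

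The tests at 3 h called no member. Against PBS, 0 of 7 members and 0% of all genes were called by limma for either vector, with 1 member and 2.2% of all genes at an unadjusted p under 0.05 for AAV-hSPB and 0 members and 1.94% for AAV-hSPBTLR9i, and voom on the recovered counts called 0 members. After AAV-hSPB H2-Ab1 differed by 0.41 ± 0.20 (95% interval -0.05 to 0.87), H2-DMb1 by 0.35 ± 0.16 (-0.002 to 0.71), H2-DMa by 0.29 ± 0.22 and H2-Ob by -0.43 ± 0.18 (-0.85 to -0.02), each with a limma adjusted p = 0.996. After AAV-hSPBTLR9i the 7 differences ran from -0.29 for H2-Eb1 to 0.21 for Ctss. Between the vectors 0 of 7 passed (0% of all genes, limma, with 0 members and 1.55% at an unadjusted p under 0.05), and the differences ran from -0.32 for H2-DMa to 0.23 for H2-Ob. H2-DMa stood at 10.04 to 10.89, H2-DMb2 at 8.21 to 8.45, H2-Eb1 at 5.40 to 6.39 and Ctss at 11.29 to 11.88 in the AAV-hSPB lungs, and each range overlapped that of PBS.

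Among the 9 lungs at 3 h the pairs of members had correlations of -0.60 to 0.95 (median 0.04), 8 of 21 below 0, with H2-Ab1 again close to H2-DMb1 (0.95) and H2-DMa (0.88). The genes most like the members' mean there were Ncr1, an NK cell receptor (0.96), Tap1 (0.94), Psmb9 (0.93), Klrk1, another NK receptor (0.93), and Psmb8 (0.90). Tap1 and Psmb9 also led at day 97, and Ncr1 and Klrk1 had correlations of 0.25 and 0.47 with the members over the day 97 lungs. The B cell marker sum lay between 999.5 and 1700.3 in the PBS lungs, between 973.1 and 1149.9 in the AAV-hSPB lungs and between 1181 and 1271 in the AAV-hSPBTLR9i lungs, with 0 of 7 markers called (limma, 0 at an unadjusted p under 0.05).

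**Figure D5:**
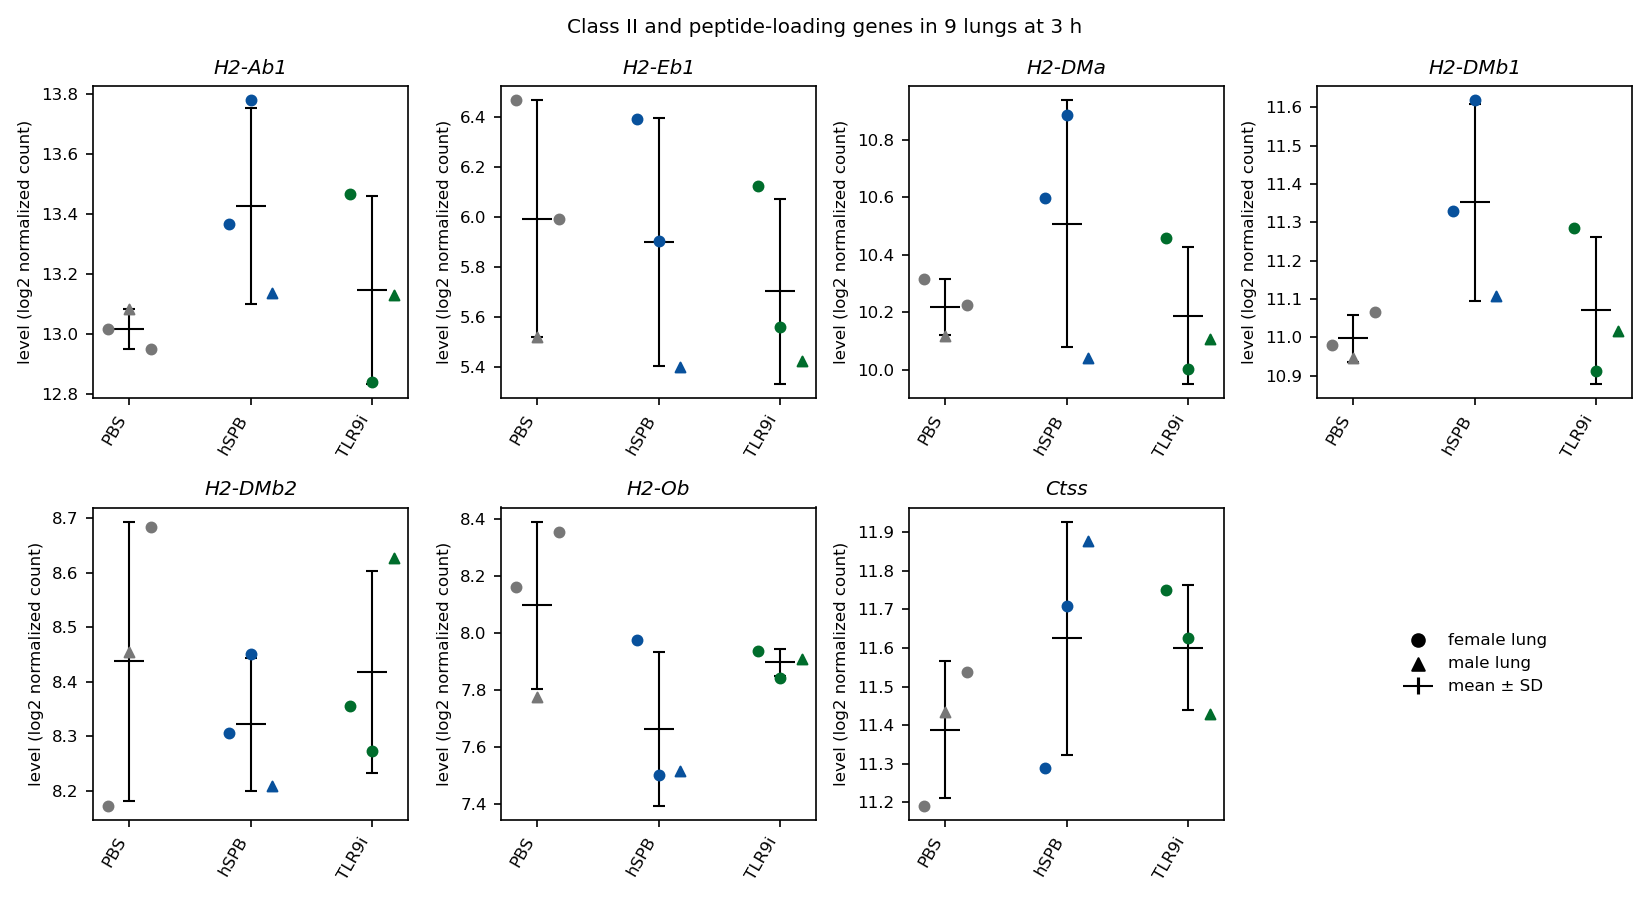
Levels of the 7 genes in the 9 lungs at 3 h, in log2 normalized counts of a table normalized apart from that of day 97, with circles for female and triangles for male lungs and bars for the mean and SD of 3 lungs. H2-Ab1 and H2-DMb1 are higher in the 3 AAV-hSPB lungs than in the 3 PBS lungs, and the remaining genes overlap.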

How the data were processed

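Right-lung RNA was counted for 773 genes in 33 samples, and groups, sexes and times come from the labels. The authors deposited log2 normalized counts and the same values on a linear scale, 1 table for day 97 and 1 for 3 h; the log2 values were tested as deposited. The series matrix holds linear signal values that the authors deposited for the same samples, used at day 97 as an alternative; its 9 columns for 3 h were left out. Software and background treatment by the authors are not given in the sources used here. The log2 values were found scaled to 6 of 12 reference genes, and the matrix to all 12. Every value lay within 0.01 of a whole multiple of 1 count per lung (100% in each lung), which gave counts and depth. The 8 dimmest control probes gave a background at day 97 only, a step chosen with the data in view. The number of lungs limits precision.

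R 4.3.3 with limma 3.58.1 (lmFit, contrasts.fit, eBayes) fitted the groups of each table jointly, with 18 and 6 residual degrees of freedom, two-sided, with p-values adjusted over the 773 genes by Benjamini and Hochberg in each of 19 comparisons and a threshold of 0.05. Intervals are 95%. The fit was tested on simulated data. Alternatives were other scales, the matrix values (pseudocount 1), a filter on the lowest 25% of genes, a floor, sex as a covariate, another prior, the compared groups alone, voom on counts and each lung left out. Members, gene lists and motifs were chosen with earlier results of these data known. The genes named for likeness come from the 8 most like the members at day 97, 5 within groups and 5 at 3 h, and markers are given as counts and sums. Some genes are not reported here by name. Python 3.11.15 with numpy 2.4.6, pandas 2.3.3 and matplotlib 3.10.9 made the tables and plots.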

Additional observations from a re-analysis of the deposited data

Results flagged for a closer look

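Ctss in single AAV-hSPBTLR9i replicate 4 stood at 11.2752 log2 normalized counts, below the other 3 lungs of its group at 11.61 to 11.63, and the gap took up 0.943 of the group's range, above Dixon's 95% critical value for 4 samples. It was the single case among 42 sets of 4 lungs examined, and chance alone marks about 1 in 20.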

How the results depend on the processing

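None of the results changed direction after passing. The number of members called differed by more than 1.5 times, or from or to 0, as follows. For single AAV-hSPB against continued doxycycline (0) it was 1 with voom, with values under log2 5 raised to 5 and without off-doxycycline replicates 1 and 2 together. For single AAV-hSPBTLR9i against continued doxycycline (1) it was 0 with all 12 reference genes, the median gene, the matrix values, the compared groups alone and a second sample identifier series as a covariate, and 2 with the low filter, sex, a trended and robust prior, voom, the floor, without the off-doxycycline pair, and without on-doxycycline replicate 1 and AAV-hSPB repeat replicate 2 together. For repeat against continued doxycycline it was 3 for AAV-hSPB (6) with the groups alone and 7 for AAV-hSPBTLR9i (4) without the latter pair. For repeat against off-doxycycline lungs it was 1 for AAV-hSPB (4) with the groups alone and 1 for AAV-hSPBTLR9i (2) without the off-doxycycline pair. For repeat against single AAV-hSPB (2) it was 0 with all 12 reference genes and with the groups alone, and 1 with the matrix values and with the low filter. For repeat AAV-hSPB against single AAV-hSPBTLR9i (1) it was 0 with all 12 reference genes, the median gene, the matrix values, the groups alone and without on-doxycycline replicate 1 and AAV-hSPB repeat replicate 2, and 2 with sex, the other prior, voom, the floor and without the off-doxycycline pair. For repeat AAV-hSPBTLR9i against single AAV-hSPB (0) it was 1 with the groups alone. Smaller shifts, such as 4 or 7 in place of 6 for repeat AAV-hSPB against continued doxycycline, are not listed.

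With each lung left out in turn, the counts ran from 0 to 1 and from 0 to 2 for the single doses of AAV-hSPB and AAV-hSPBTLR9i and from 4 to 7 and from 3 to 6 for their repeats, against continued doxycycline. Against the off-doxycycline lungs they ran from 0 to 1 for single AAV-hSPB, from 4 to 5 for repeat AAV-hSPB and from 1 to 3 for repeat AAV-hSPBTLR9i, for repeat against single AAV-hSPB from 0 to 2, and for repeat AAV-hSPB against single AAV-hSPBTLR9i from 0 to 2. In the comparisons not named here limma or voom called 0 members under every alternative. The identifier covariate and both pairs of lungs left out were chosen after seeing the data. Over single genes, 31 calls were lost and 38 gained under the alternatives that keep all lungs or drop a pair, 37 and 13 with a lung left out, and the cause was not tested. All 12 reference genes as the scale were not run at 3 h. No paired analysis was possible because the sample numbers in the labels are not shared between groups. H2-Eb1, at 32 to 188 counts, is the gene most limited by depth.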
